A study of Mus musculus with 14 samples.

Results

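Small RNA was sequenced from lung and 13 other tissues of mice of the C57BL/6J strain, a standard inbred line, and the lung library was set against all the others. The others were brain, cerebellum, heart, liver, kidney, spleen, pancreas, oesophagus, stomach, small intestine, colon, ovary and uterus. Total RNA was taken with Trizol, a phenol-based reagent, and RNA of several animals was mixed before a library was made by the usual Illumina procedure. The labels give 5 mice at harvest and 10 mice in the pool, and these numbers were not reconciled here. All libraries share the strain, and no allele, treatment, age or sex is given in the sources used here. Lung is 1 library of 14, with no replicate, so no test between tissues was possible, and each difference below compares these libraries.

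All 1046 names of the count table were examined, of which 805 had a read in some library and 551 had a read in lung. Abundance is given as RPM, the reads of a name per 1000000 reads of its library other than miR-143. miR-143, a miRNA of smooth muscle, was left out of the totals because it took 61.1% of all lung reads (exact Clopper-Pearson 95% interval 61.1 to 61.2%) and between 4.01% (pancreas) and 98.7% (the library labelled colon) elsewhere. Names with at least 10 RPM and 10 reads in some library were compared, which left 448. Reads carry no molecular identifiers, so every interval below covers counting error only.

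A miRNA is cut from a hairpin in which each arm can give a mature strand, and its seed, the bases from position 2 to position 8, pairs with target transcripts. Lung is rich in capillary endothelium, and its airways are lined with multiciliated cells, secretory cells and basal cells. miR-126, which lies in an intron of the endothelial gene Egfl7, is a standard marker of endothelium, and the miR-34b/34c and miR-449 hairpins act in the making of motile cilia.

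The mature sequences that carry the lung profile are printed 5′ to 3′ with the seed in capitals, as RefSeq gives them (GRCm38.p6). The first set belongs to an X-linked cluster that stood high in lung, and the strand from the other arm of miR-503 is marked with a star.
miR-542-3p: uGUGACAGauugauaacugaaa
miR-351: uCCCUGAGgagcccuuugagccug
miR-322: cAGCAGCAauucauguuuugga
miR-503: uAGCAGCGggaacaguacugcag
miR-503*: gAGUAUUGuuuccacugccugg
The next pair was shown because miR-34b-5p and miR-449a, from hairpins on different chromosomes, carry the same seed.
miR-34b-5p: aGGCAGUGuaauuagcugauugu
miR-449a: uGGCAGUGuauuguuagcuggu
The last set holds relatives with the same seed whose balance in lung differed from that in most other tissues, and abundant names that were highest in lung.
miR-30a: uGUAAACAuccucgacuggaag
miR-30e: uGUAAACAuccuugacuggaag
miR-10a: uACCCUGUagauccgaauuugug
miR-10b: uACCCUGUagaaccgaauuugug
miR-26a: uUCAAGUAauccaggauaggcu
miR-24: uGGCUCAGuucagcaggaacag
miR-27b: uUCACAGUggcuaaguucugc
Counted from 1 at the 5′ end, miR-30a and miR-30e differ by C13U, miR-10a and miR-10b by U12A. Each difference lies outside the seed.

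The lung library held 5938013 reads, of which 2308461 were not miR-143, so 1 lung read was worth 0.433 RPM and a count of 0 allows up to 1.30 RPM (3 reads). The other libraries held from 86545 (labelled colon) to 6502821 (kidney) such reads, and ovary (292350) and pancreas (597154) were also shallow. In the colon library a count of 0 allows up to 34.7 RPM. Colon and uterus stand for the labels of those libraries, because miR-215, an intestinal miRNA, reached 118373 RPM in the second and 347 RPM in the first, against 365682 RPM in small intestine. The median name stood 1.06 higher in lung than in the median of the other libraries on the log2 scale, with 1 RPM added to each value. miR-378 took 47572 RPM in lung and a median of 237451 RPM elsewhere, and with miR-378 also left out of the totals the median name still stood 0.73 higher. Lists are read against 1.06 and not against 0.

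The 15 most abundant names held 77.3% of the lung reads other than miR-143. Members of the let-7 family, which rises as cells differentiate and shares 1 seed, led with let-7f (138383 RPM), let-7c (130451 RPM) and let-7a (87338 RPM), and the 8 let-7 names together held 43.9%. let-7b (49423 RPM) and let-7g (15942 RPM) were also among the 15. Next to let-7 stood miR-126-3p (71736 RPM), miR-30a (61446 RPM), miR-378 (47572 RPM) and miR-21 (40745 RPM), the last a miRNA known for its rise in inflamed and scarred tissue. miR-26a, miR-30d, miR-24, miR-10a, miR-101a and miR-34c lay between 14335 and 32263 RPM. Of the 15, only miR-126-3p, miR-30a, miR-26a, miR-30d, miR-24 and miR-34c stood above every other library, whereas let-7 names ranked 4 to 6 of 14.

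With at least 100 RPM in lung and at least 4 times the median of the other 13 libraries, 65 of 448 names (14.5%) were higher in lung. With the mirrored rule 3 names (0.67%) were lower. The split depended on the scaling: it was 7 higher and 5 lower with median-of-ratios size factors, 31 and 6 with totals that left out the 5 most abundant names of each library, and 23 and 5 with lung divided by its own median ratio. At 100 RPM or more, 31 names (6.92%) stood above every other library in lung, and 9 (2.01%) stood at least 2 times above. Under each of the 5 other scalings, miR-126-3p, miR-542-3p and miR-503* still stood above every other library, and the other names of the 31 did not under 1 or more. miR-503* did not keep a lung level of 100 under each scaling, so by the full rule only miR-126-3p and miR-542-3p remained. Lung was not extreme among the libraries in this respect: the same rule gave 54 highest names in cerebellum, 46 in brain, 30 in spleen and 2 in liver. Of the 65 higher names, 27 were highest in lung and 10 in spleen. Without the libraries labelled colon and uterus, 67 names were higher, 2 lower and 35 highest, and without the shallow libraries labelled colon, ovary and pancreas the numbers were 49, 2 and 35. Just inside the 4-fold limit lay miR-203 (4.02), miR-26b (4.10), miR-30c-2* (4.12) and miR-142-3p (4.15), and just outside lay miR-1839-5p (3.85), miR-652 (3.68), miR-106b* (3.64) and miR-194 (3.61).

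**Figure D1:**
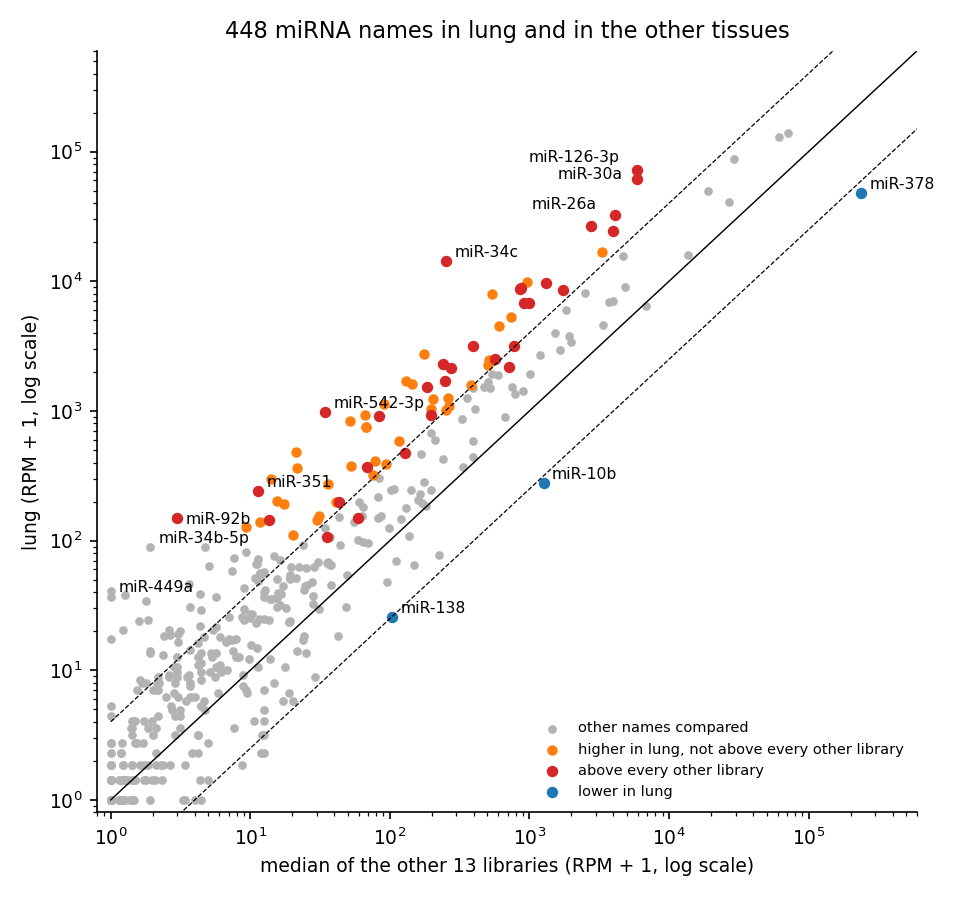
Lung RPM against the median of the other 13 libraries, both with 1 RPM added and on log axes, for the 448 names compared. The solid line marks equal values and the dashed lines a 4-fold difference; 65 names lie above at 100 RPM or more and 3 lie below, and miR-126-3p (71736 RPM) and miR-34c (14335 RPM) combine a high level with a large ratio.

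miR-126, the endothelial miRNA, was the clearest abundant mark of the lung. miR-126-3p stood at 71736 RPM in lung (71391 to 72082, exact Poisson 95% interval), and the other libraries ran from 256 RPM (pancreas) to 22654 RPM (stomach) with a median of 5864 RPM. Lung was thus 3.17 times (95% interval 3.14 to 3.20) the next library, stomach, and the order after it was oesophagus (19041 RPM), spleen (18178 RPM) and kidney (17984 RPM). The strand from the other arm, miR-126-5p, had 8651 RPM in lung against 2782 RPM in stomach, and the ratio of the arms in lung, 8.29, lay inside the range of the other libraries (1.86 to 11.4). With median-of-ratios factors and without the 5 most abundant names, the first place of miR-126-5p was lost (0.762 and 0.920 of the highest other library). All 4 names of the endothelial list were higher in lung: beside miR-126-3p these were miR-130a (2136 RPM, 7.75 times the median), miR-222 (272 RPM, 7.57 times) and miR-221 (391 RPM, 4.19 times). miR-221 and miR-222 each ranked 2 in lung, and together they had 663 RPM in lung and 2029 RPM in brain. miR-130a stayed highest in lung under 2 of the 5 other scalings. With median-of-ratios factors the log2 ratios to the median were 1.11 (miR-130a), 1.48 (miR-222) and 0.27 (miR-221), all under 4-fold. The list's median was 2.94 on the log2 scale, beside 1.06 for all names. miR-126-3p was also highest in lung under each of the 5 other scalings, at 1.18 to 1.90 times the next library. Its log2 ratio to the median was under 4-fold with median-of-ratios factors (1.44) and without the 5 most abundant names (1.97). In a bulk library, more cells of a type and more RNA per cell cannot be told apart.

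Among the miRNAs of multiciliated cells, miR-34c was the most abundant and had the largest ratio of all 65 higher names. It stood at 14335 RPM in lung (33091 reads), while the others ran from 8.37 RPM (pancreas) to 2593 RPM (ovary) with a median of 253 RPM. Lung was 56.4 times the median and 5.53 times (95% interval 5.14 to 5.95) the ovary, whose value rests on 758 reads; brain followed at 2121 RPM and kidney at 915 RPM. With median-of-ratios factors the order with ovary turned, lung being 0.776 of ovary, and it held under the 4 other scalings. miR-34b-5p, from the neighbouring hairpin, had 203 lung reads (87.9 RPM), against 17.1 RPM in ovary, 15.5 RPM in brain and at most 4.15 RPM elsewhere. miR-449a, which lies in an intron of Cdc20b, had 83 lung reads (36.0 RPM, 28.6 to 44.6), 16 reads in brain (3.21 RPM), and no read in 10 of the other libraries. Its lung value exceeded brain 11.2-fold (95% interval 6.50 to 20.5), and lung was highest under all 5 other scalings. In the library labelled colon, where a count of 0 allows 34.7 RPM, a level like that of lung could go unseen or give few reads. miR-449b had no lung read and miR-449c had 5. The 3 listed names compared had a median of 5.53 on the log2 scale, the largest of the 29 lists.

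Among names at 100 RPM or more, the largest excess over the next library belonged to miR-542-3p, part of an X-linked cluster in which RefSeq places Mir450b, Mir450-1, Mir450-2, Mir542, Mir351, Mir503 and Mir322 next to each other. miR-542-3p stood at 979 RPM in lung (939 to 1019.8), and the others ran from 6.17 RPM (oesophagus) to 127 RPM (ovary) with a median of 33.6 RPM. The ratio to ovary was 7.73 (95% interval 5.59 to 11.0, 37 ovary reads), and lung was highest under each other scaling, by 1.08 to 5.51 times. miR-351, which shares the seed CCCUGAG with the miR-125 family, had 240.0 RPM in lung and 54.7 RPM in ovary, with a median of 10.4 RPM. miR-322, a relative of miR-15 and miR-16 that carries their seed, had 1518 RPM in lung, 852 RPM in ovary and 779 RPM in spleen. All 6 listed members stood above the all-name median, 3 were higher in lung by the rule, and the list summed to 2887 RPM against 1214 RPM in ovary and a median of 289 RPM. With median-of-ratios factors miR-351 in lung was 0.615 of the highest other library. miR-322 lost its first place with those factors (0.250), without the 5 most abundant names (0.572) and with lung divided by its median ratio (0.856).

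Within a library the members did not keep 1 proportion. The ratio of miR-542-3p to miR-322, which no scaling can change, was 0.645 in lung (0.611 to 0.680) and 0.0244 (oesophagus) to 0.339 (liver) in the 10 other libraries with at least 100 reads of the pair. The ratio of miR-351 to miR-322 was 0.158 in lung (0.144 to 0.173) and 0.0285 to 0.0792 in the same 10. Both ratios were thus above every other library with at least 100 reads of the pair, but not above all libraries. In cerebellum, with 24, 15 and 11 reads of miR-542-3p, miR-351 and miR-322, they were 2.18 (1.03 to 4.93) and 1.36 (0.585 to 3.28). Pancreas, with at most 5 reads of each name, gave 1.0 and 0.2. These pairs were chosen after the cluster's values had been seen. The arms of miR-503 varied as well. miR-503* outnumbered miR-503 in lung, 328 reads to 98, a ratio of 3.35 (2.66 to 4.24). It also did so in liver (50 reads to 11, a ratio of 4.55, 2.34 to 9.68), and in stomach, spleen, heart, kidney and oesophagus the ratio was 1.44 to 2.10. Ovary was at the other end with 4 reads to 48. miR-503 was higher in ovary (164 RPM) than in lung (42.5 RPM) while miR-503* was higher in lung (142 against 13.7 RPM). miR-322* ran the other way, at 199 RPM in lung and 779.9 RPM in ovary, while miR-322 was higher in lung.

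**Figure D2:**
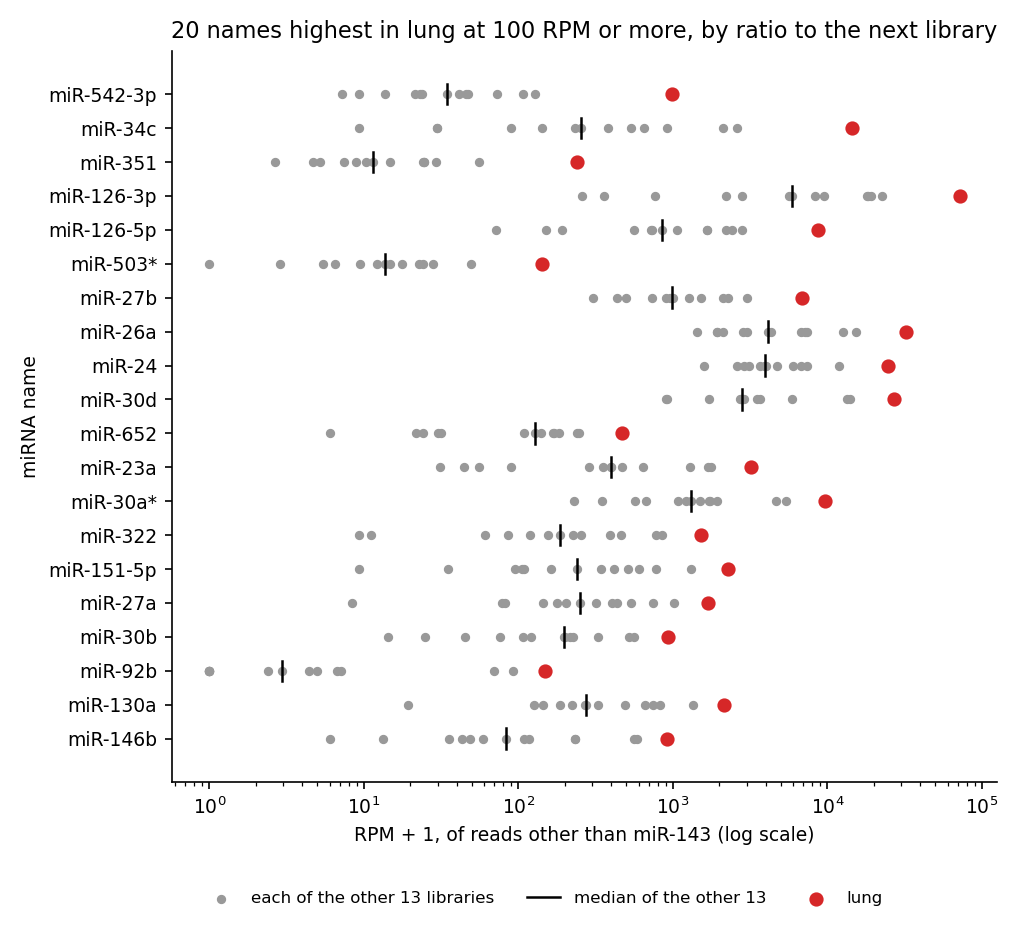
RPM with 1 added (log axis) of the 20 names highest in lung at 100 RPM or more with the largest ratio to the next library; red points are lung, grey points the other 13 libraries and black ticks their median. miR-542-3p at the top is 7.73 times the next library, and miR-146b at the bottom 1.55 times.

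Several abundant families that many tissues share were also highest in lung. In the clusters of miR-23, miR-24 and miR-27, known from blood vessels, all 5 names compared were higher and above every other library, summing to 38716 RPM against 16656 RPM in kidney. miR-24 had 24497 RPM in lung and 11922 RPM in kidney, miR-27b 6796 and 3009 RPM, and miR-23a 3190.0 RPM beside 1767 RPM in stomach. None of the 5 held first place under all 5 other scalings: miR-27b held it under 4, miR-24 and miR-23a under 3, miR-27a under 2 and miR-23b under 1. miR-26a had 32263 RPM in lung, 2.12 times (95% interval 2.01 to 2.24) the library labelled colon, and with median-of-ratios factors it was 0.787 of the next library.

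The miR-30 family, expressed in many tissues, split by member. miR-30a stood at 61446 RPM in lung, 1.23 times kidney (49957 RPM), and no other library exceeded 15483 RPM. miR-30d (26841 RPM) and miR-30b (927 RPM) were also highest in lung, while miR-30c (2279 RPM) and miR-30e (8993 RPM) were second to kidney, which had 35848 RPM of miR-30e. The first place of miR-30a did not hold under any of the 5 other scalings, where it was 0.546 to 0.860 of the highest other library, and miR-30d and miR-30b each stayed first under 1 of the 5. Other highest names included miR-99b (8915 RPM, cerebellum 6023 RPM), miR-151-5p (2281 RPM), miR-652 (470.4 RPM) and miR-92b (149 RPM), the last otherwise seen mainly in brain (91.1 RPM) and cerebellum (68.3 RPM). Of these, miR-99b stayed first under none of the 5 other scalings (0.468 to 0.992 of the highest other library), and miR-151-5p, miR-652 and miR-92b under 2 each. miR-326 (295 RPM, 20.9 times the median), miR-744 (750.3 RPM, 11.1 times) and miR-582-3p (191 RPM, 11.1 times) were higher in lung too, though brain or cerebellum held more of each.

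The miRNAs of red blood cells were high in lung, second to spleen or heart. miR-451 and miR-144 come from 1 transcript of red cell precursors, and miR-486 is abundant in red cells and muscle. miR-144* had 1703 RPM in lung, with the others from 5.02 RPM (pancreas) to 5812 RPM (spleen) with a median of 130.4 RPM. miR-451 had 1131 RPM in lung, 1365 RPM in spleen and a median of 90.3 RPM, and miR-486 had 935 RPM in lung and 1072 RPM in heart. All 3 listed names were higher by the rule, and they stayed so under each of the 5 other scalings, together with miR-144, miR-3107, miR-34c and miR-542-3p and with no other name (miR-351, miR-92b, miR-326, miR-322* and miR-582-3p also kept a 4-fold ratio under each scaling, but not a lung level of 100). miR-3107 ran beside miR-486 at a near-constant ratio (1.02 to 1.13 over the libraries with at least 100 reads of the pair, lung included), so the 2 may share reads. Whether the lung was cleared of blood before extraction is not given in the sources used here, and the part of blood in the other results was not tested.

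Markers of white blood cells were led by miR-142, found in nearly all blood lineages. miR-142-5p had 1613 RPM in lung, 4483 RPM in spleen and a median of 143 RPM, so lung was 11.2 times the median. The other arm, miR-142-3p, had 1575 RPM in lung, 22075 RPM in spleen and a median of 378.5 RPM (4.15 times). miR-150, of mature lymphocytes, had 154 RPM against 1675 RPM in spleen, miR-155 39.4 against 502 RPM, and the myeloid miR-223 35.5 against 51.3 RPM. With miR-142 taken as miR-142-3p, the 4 listed names summed to 1804 RPM in lung, close to small intestine (1777 RPM) and far under spleen (24303 RPM). miR-146a, a brake on inflammatory signalling, was second to spleen (9943 and 14706 RPM). Its relative miR-146b was highest in lung (911 RPM, brain 588 RPM, spleen 559 RPM), but not under 4 of the 5 other scalings. None of the listed markers of red and white blood cells was at 0 in lung.

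Epithelial miRNAs were high in lung, below the highest tissues. The miR-200 family, which holds cells in an epithelial state, had all 5 names higher in lung, led by miR-200c (5306 RPM), with a list median of 2.85 on the log2 scale. Its sum of 8783 RPM ranked 5 of 14, under small intestine (29609 RPM), the library labelled uterus (22267 RPM), stomach (20020.4 RPM) and kidney (11768 RPM). It was above oesophagus (7954 RPM) and far above brain, heart and spleen, where miR-200c did not exceed 186 RPM. With median-of-ratios factors none of the 5 names kept a 4-fold ratio (log2 from 1.10 for miR-141 to 1.99 for miR-200c). Without the 5 most abundant names only miR-429 did (3.43). In the miR-183 cluster, known from sensory and other epithelia, miR-182 (4520.3 RPM) was second to the library labelled uterus (5315 RPM), miR-183 (2749.9 RPM) below oesophagus and that library, and miR-96 (81.0 RPM, 187 reads) within counting error of small intestine (77.3 RPM). With median-of-ratios factors miR-182 and miR-183 also fell under 4-fold (log2 1.14 and 1.47). miR-203, of stratified epithelium, had 1023 RPM beside 25352 RPM in oesophagus, and miR-205 had 16 reads. miR-215 had 7983 RPM in lung (14.8 times the median), while its relative miR-192 had 3957 RPM and ranked 6. The ratio of miR-192 to miR-215 was 0.496 in lung, and the others ran from 0.0878 (oesophagus) to 166 (kidney) with a median of 2.24. Lung lay near the library labelled uterus (0.512) and heart (0.585). Reads may be shared between these near-identical names.

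The names lower in lung were few. miR-378, carried within the metabolic gene Ppargc1b, stood at 47572 RPM in lung (47291 to 47855), and the others ran from 25026 RPM (brain) to 495327 RPM (stomach) with a median of 237451 RPM. Only brain was lower than lung, and the log2 ratio to the median over the 6 scalings ran from −3.75 to −2.32. miR-138, a miRNA of neurons, had 24.7 RPM (57 reads) against a median of 103 RPM and 12846 RPM in brain. miR-10b, of the HoxD cluster, had 276 RPM against a median of 1266 RPM, with 13711 RPM in kidney, 11820.4 RPM in the library labelled colon and 5.22 RPM in brain. Heart, spleen, cerebellum, pancreas, liver and brain held less than lung, which ranked 8 of 14. Without the library labelled uterus, stomach or oesophagus, 1 name in place of 3 remained lower.

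The Hox-linked miRNAs moved apart in lung. miR-10a, of the HoxB cluster, ranked 3 in lung (16841 RPM) after kidney (32719.5 RPM) and the library labelled uterus (29156 RPM). The ratio of miR-10a to miR-10b was 61.1 in lung (56.5 to 66.2), second to liver (205). The rest of the 11 other libraries with at least 100 reads of the pair ran from 0.275 (ovary) to 14.0 (spleen). miR-196a and miR-196b, of more posterior Hox genes, had 11 and 51 lung reads (4.77 and 22.1 RPM), against 2927 and 6681 RPM in kidney. The ratio of miR-30a to miR-30e set lung apart as well: it was 6.83 (6.73 to 6.93), above all 13 others, which ran from 0.607 in spleen to 4.02 in pancreas. Because the members of each pair differ at 1 base, reads assigned to one may come from the other, and how such reads were counted is not given in the sources used here. miR-199a-3p and miR-199b have the same mature sequence in RefSeq, and their counts kept a ratio of 1.96 to 2.02 in the libraries with at least 100 reads of the pair. They are thus read as 1 miRNA, though the calls and the lists count both names.

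**Figure D3:**
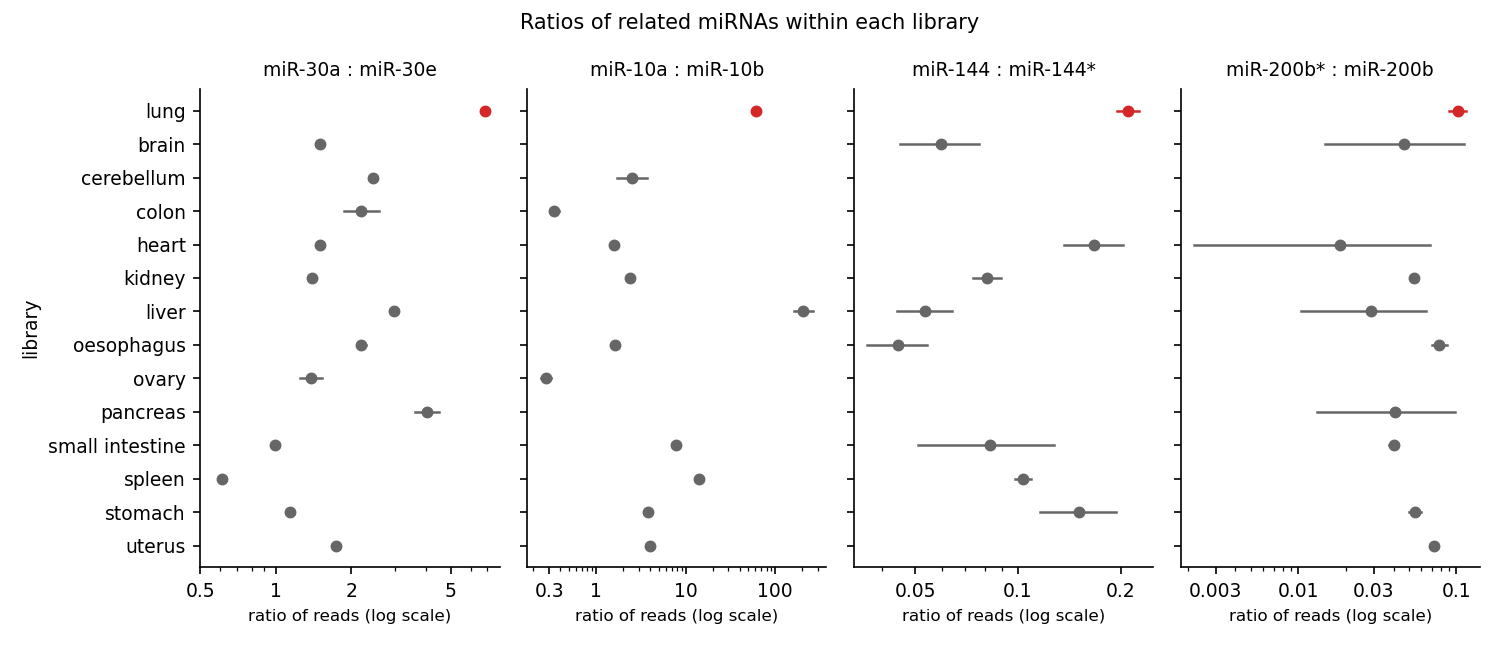
Ratio of reads of related names within each library (log axes), with exact 95% intervals as bars; lung is red, and libraries with under 100 reads of a pair are left out. miR-30a to miR-30e is 6.83 in lung and at most 4.02 elsewhere, and miR-10a to miR-10b is 61.1 in lung, second to liver.

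The use of hairpin arms in lung was mostly like that of other tissues. Of 111 hairpins with at least 100 reads in lung and in at least 5 other libraries, the share of the lesser arm lay within the range of those other libraries in 101, above it in 7 and below it in 3. miR-144, the strand that is not miR-144*, held 17.4% of its pair in lung (16.3 to 18.5%, exact interval), and 4.26% (oesophagus) to 14.3% (heart) in 8 other libraries, with counting intervals of lung and heart that overlap when given as a ratio of the arms (0.195 to 0.227 and 0.137 to 0.203). miR-200b* held 9.25% in lung (8.26 to 10.3%) and at most 7.23% in the 9 other libraries with at least 100 reads of the pair. miR-200a* held 3.05% in lung and at most 1.94% in 6 such libraries. Some shallower libraries gave higher values on few reads. For miR-200b* and miR-200a* their counting intervals overlap that of lung. Examples are miR-200b* in the library labelled colon (4 reads to 25) and miR-200a* in heart (3 reads to 35). For miR-144 the ratio of the arms was 3.67 in pancreas (11 reads to 3, 0.969 to 20.5). In cerebellum it was 0.75 (9 reads to 12, 0.279 to 1.94). Both intervals lie above that of lung, so lung was not highest over all libraries. In the other hairpins outside the range the excess was within the counting interval of lung. The 5 hairpins furthest from the median of the others were those of miR-203, miR-326, miR-93, miR-486 and let-7i, and all lay within the range. let-7i* held 0.891% in lung and 0.0712 to 1.51% elsewhere, and miR-486* held 1.77% in lung and 0.610 to 17.7% in the 10 others of enough depth.

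Markers of brain, liver and pancreas were low in lung. Neural miRNAs summed to 199 RPM over 9 names, against 97306 RPM in brain and a median of 484 RPM, with lung at rank 10. Of the 9, 5 stood below the median of the other libraries, among them miR-9 (63.2 RPM, median 149 RPM). The other 4 stood above it, among them miR-124 (13.9 RPM, median 10.2 RPM), miR-128 (66.3 RPM, median 34.7 RPM) and miR-153 (7.36 RPM, median 0.615 RPM). The hepatocyte miRNAs miR-122 and miR-802 had 47.2 and 6.93 RPM (liver sum 466071 RPM). Of the pancreatic names miR-216b had no lung read, miR-216a had 5 and miR-217 had 29. miR-1, of heart and skeletal muscle, stood at 6879 RPM, rank 5, beside 405138 RPM in heart, whereas miR-133a had 37 reads (16.03 RPM). The ratio of miR-1 to miR-133a was 429 in lung (311 to 609.8), 1187 in oesophagus and 208 in heart. In smooth muscle, miR-145 had 421 RPM, rank 6, in spite of the large share of miR-143, its neighbour in the genome. The imprinted Dlk1-Dio3 cluster had none of its 40 names compared called in either direction, and its median was 0.12 on the log2 scale.

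Read against the all-name median of 1.06, 19 of 29 lists lay above and 10 below. Highest after the ciliary names were red blood cells (3.70), the X-linked cluster (3.67), inflammation-linked names (3.38) and the miR-183 cluster (3.14). The inflammation-linked value is that of miR-146a, the middle of 3 names compared. There miR-146b was at 3.45, and miR-21, by far the most abundant, was at 0.60, under the all-name median. The summed RPM of that list was 1.73 times the median of the other libraries and ranked 3. The mesenchymal list, with miR-199a-3p (2470.5 RPM) and miR-214 (63.7 RPM), was at 2.27, and the miR-15/16 family at 1.82. The mesenchymal value rests on miR-199a-3p and miR-199b, which have the same sequence and were counted separately. miR-214 was at 0.78, under the all-name median. No name of the let-7, miR-29 or miR-181 families was called, with medians of 1.19, 0.87 and 0.63. The side of the all-name median on which a list lay changed with the scaling for smooth muscle, the miR-17~92 clusters, let-7, miR-29 and intestinal epithelium, and for no other of the 29 lists under the 4 other scalings tried on them. The lists were drawn up with earlier results of these data known, so their order describes the library and is not independent evidence.

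**Figure D4:**
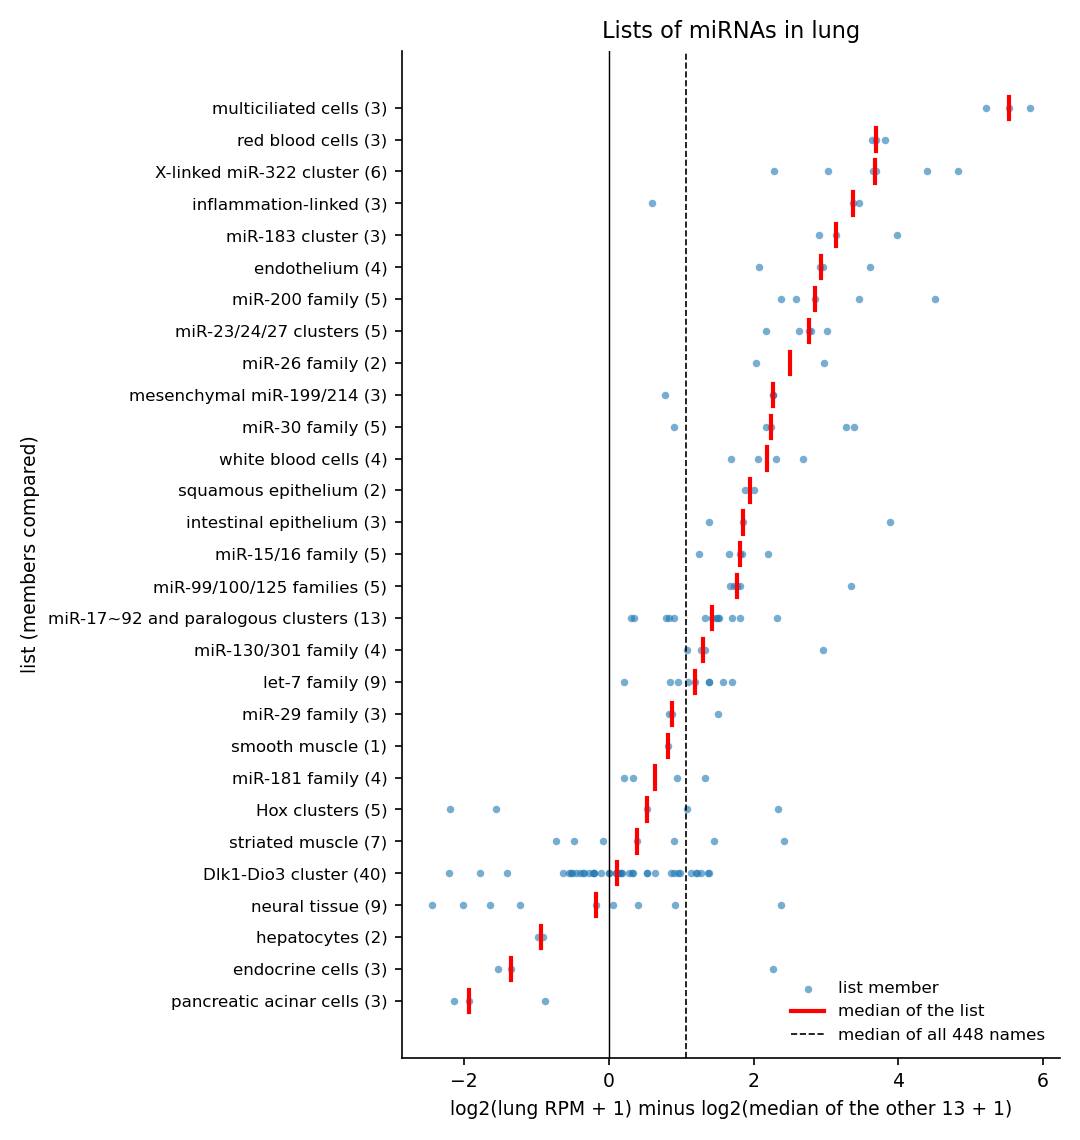
Lung against the median of the other 13 libraries, as a difference of log2(RPM + 1), for the members of each of 29 lists (points) with the list median (red); the number of members compared stands in brackets. The dashed line at 1.06 is the median of all 448 names, and 19 list medians lie to its right.

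Summed by seed, the lung profile was led by let-7. Of the 448 names, 296 matched a mature sequence in RefSeq and held 80.4% of the lung reads other than miR-143, in 228 seeds, of which 38 (16.7%) were higher in lung and 1 lower by the same rule. GAGGUAG, the let-7 seed, summed to 440307 RPM (median 200919) and led the matched names. It was followed by GUAAACA of miR-30a, miR-30e, miR-30c and miR-384-5p (72717 RPM against 9146) and AGCUUAU of miR-21 (40745 RPM). Then came UCAAGUA of miR-26 (35431 RPM), GGCUCAG of miR-24 (24497 RPM) and ACCCUGU of miR-10 (17116 RPM). Among the matched names, the largest ratios to the median of seeds at 100 RPM belonged to GUGACAG of miR-542-3p (28.3), CUCUGGG of miR-326 (20.9), ACAGUAU of miR-144 (16.6), AUGGCAC of miR-183 (15.8), AUCUUAC of miR-200b* and miR-200a* (13.5) and GAUAUCA of miR-144* (12.97). The unmatched names include miR-126-3p, miR-378, miR-34c, miR-30d and miR-30b, so these are left out of the seed sums. The order of seeds therefore holds for matched names only: miR-126-3p (71736 RPM) and miR-378 (47572 RPM) each exceeded miR-21. The GUAAACA sum covers part of the miR-30 family, whose 5 listed names summed to 100486 RPM. No sum is given for the seed of miR-34b-5p and miR-449a, the relatives of miR-34c.

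Across the 448 names the lung profile ranked most like kidney (Spearman's rho 0.886), spleen (0.873) and heart (0.861), and least like cerebellum (0.501) and brain (0.481). The rho values describe names of the same library and carry no test, and libraries share abundant names such as let-7. Against kidney, 32 names (7.14%) were at least 4 times higher in lung and 13 (2.9%) at least 4 times lower. miR-215 (42.8 times), miR-92b (26.1 times), miR-142-5p (18.8 times) and miR-34c (15.7 times) were among the higher. The kidney excess was led by miR-196a (614 times), miR-196b (302 times) and miR-10b (49.8 times). Against spleen, 42 names (9.38%) were higher and 8 (1.79%) lower in lung. The lung side held miR-34c (102 times), miR-200a (49.8 times), miR-183 (24.5 times) and miR-30a (18.97 times), and miR-92b, without a spleen read, was at least 116-fold higher against a floor of 3 reads. The spleen side held the blood cell names miR-142-3p (14.0 times), miR-155 (12.7 times) and miR-150 (10.9 times). Kidney and spleen were taken because their profiles ranked nearest, after the values had been seen.

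**Figure D5:**
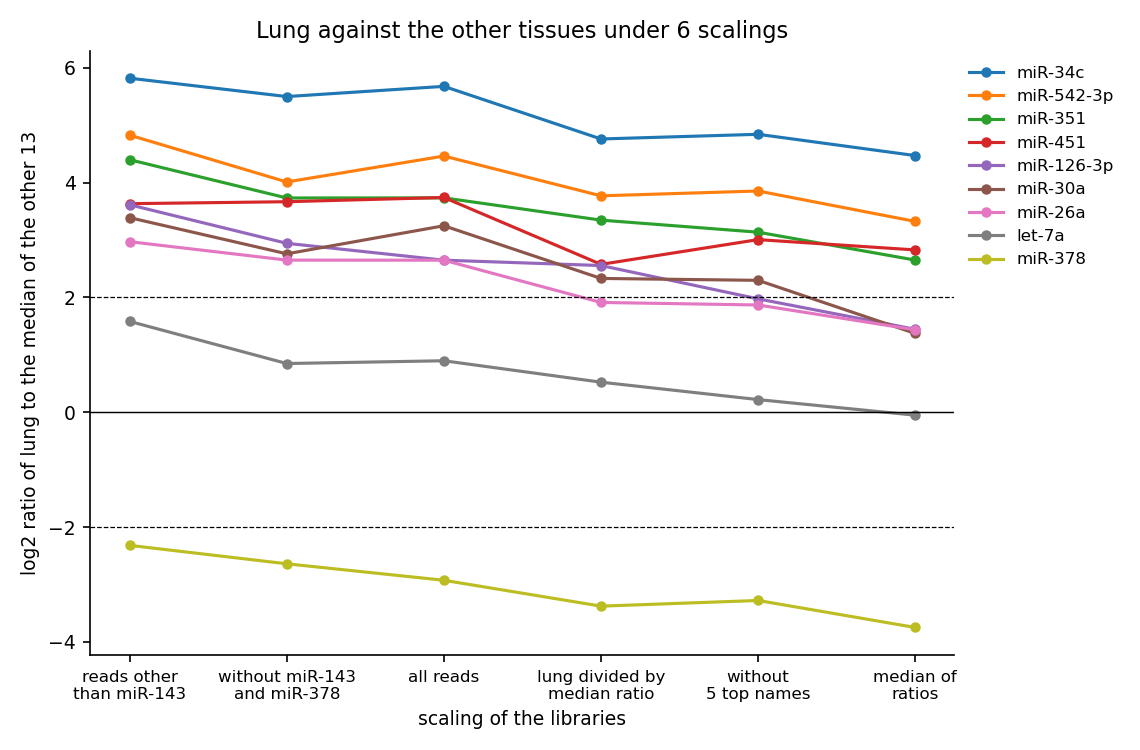
Log2 ratio of lung to the median of the other 13 libraries for 9 names under 6 scalings of the libraries; the dashed lines mark a 4-fold difference. miR-34c, miR-542-3p, miR-351 and miR-451 lie above 4-fold in all, and miR-126-3p, miR-30a and miR-26a fall under it with median-of-ratios factors, where let-7a reaches −0.052. miR-126-3p and miR-26a also fall under it without the 5 most abundant names, and miR-26a with lung divided by its median ratio.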

How the data were processed

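Small RNA libraries of 14 mouse tissues, 1 per tissue, were compared on 1 table, in which the authors deposited unscaled counts of reads for every mature miRNA. The pooled RNA and library procedure are described per the labels' protocols. Not given in the sources used here are the aligner, the build of the genome, the miRNA release and how reads matching several names were handled, so no coordinates are printed. All 14 value columns matched a tissue by name, and 0 were left unmapped.

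Counts were divided by the library total other than miR-143 and multiplied by 1000000 (RPM). Calls and ratios to the median carry 1 RPM added to each value, and ratios printed against a single library carry none. RPM values have exact Poisson intervals, shares exact Clopper-Pearson intervals and ratios exact conditional binomial intervals, all at 95%, and a count of 0 was read as up to 3 reads. With 1 library per tissue no test was run, and rules of size took its place. A list counts each listed miRNA once, by its more abundant arm over all libraries, and miR-199a-3p and miR-199b count separately.

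Names printed are the 15 most abundant in lung, list members, up to 20 with the largest ratio to the median or to the next library, the names lower in lung, the 4 nearest each side of the 4-fold limit, the 6 leading seeds by level and by ratio, and the 5 hairpins with the most different arm use. Pairs within a library, and the kidney and spleen comparisons, were added after seeing values. The members and the 29 lists were chosen with earlier results of these data known. Alternatives were totals with miR-143, median-of-ratios factors, totals without the 5 most abundant names, other pseudocounts, levels and folds, and other sets of libraries. Totals without miR-143 and miR-378, and lung divided by its median ratio, were added after seeing the data. The rule was tried on simulated counts for 326 names of the comparison of lung with the median of the other 13. It called 100 of 100 names made 8-fold higher, 57 of 57 scored among those made 8-fold lower, and 0 of 126 left unchanged. Only lowered names well above the 100 RPM level were scored. The simulated libraries shared 1 composition and were divided by their true totals, so the trial checks the rule's arithmetic. It cannot show how the calls hold under other scalings. Python 3.11.15, numpy 2.4.6, pandas 2.3.3 and scipy 1.17.1 were used.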

Additional observations from a re-analysis of the deposited data

How the results depend on the processing

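No paired analysis was possible because each tissue has 1 library. The scaling mattered most, since the median name in lung moved from 1.06 above the other libraries on the log2 scale to 0.72 with totals that include miR-143, 0.73 without miR-143 and miR-378, 0.23 without the 5 most abundant names and 0 with median-of-ratios factors. The number of names higher in lung, 65, became 42 with miR-143 included, 7 with median-of-ratios factors, 31 without the 5 top names and 23 with lung divided by its median ratio, and the fold limit gave 101 at 2-fold and 31 at 8-fold. The number highest in lung, 31, became 13, 3, 17 and 7 under these scalings in the same order, 19 without miR-143 and miR-378, and 2 at 5-fold over the next library. The number lower, 3, became 5 with median-of-ratios factors, 6 without the 5 top names, 5 with lung divided by its median ratio, 5 at 2-fold, 0 at 8-fold and 1 without the library labelled oesophagus, stomach or uterus. Seeds higher in lung fell from 38 to 22 with miR-143 included, 4 with median-of-ratios factors, 18 without the 5 top names and 25 without miR-143 and miR-378. Kidney ranked nearest to lung under each of these totals and factors. Scaling leaves the ranks within a library unchanged, so only the set of names compared could alter this order. Leaving out each library in turn gave 60 to 69 names higher and 31 to 40 highest. Among the 15 most abundant names and those higher, lower or highest in lung, the log2 ratio to the median turned negative with median-of-ratios factors for let-7g (−0.94), let-7c (−0.56), let-7f (−0.45), miR-21 (−0.43), let-7b (−0.18), miR-101a (−0.087), miR-27b* (−0.068) and let-7a (−0.052). Without the 5 top names it did so for let-7c (−0.20) and let-7g (−0.53), without miR-143 and miR-378 for let-7g (−0.073), and with lung divided by its median ratio for let-7f (−0.11), let-7g (−0.85) and miR-21 (−0.46). Which scaling is nearest to the amounts in tissue was not tested. The colon, ovary and pancreas libraries limit what can be seen of names under 100 RPM.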
